A study of Mus musculus with 60 samples.

Results

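Gene-desert H3K27me3 regions are stretches of chromatin that carry trimethylated lysine 27 of histone H3 far from any protein-coding gene start. In C3H 10T1/2 cells with a wild-type tagged histone (H3WT), 1402 such regions were found among 14326 regions that both independent H3WT anti-H3K27me3 peak lists shared. These members were selected on measured H3WT values. Peaks of both H3WT lists were merged where they overlapped or touched, which gave 24102 regions, and a member had a peak in both lists, lay on one of the 19 autosomes, was under 20 kb long and lay more than 100 kb from every protein-coding transcription start of the GENCODE annotation of mm10. A further 29 autosomal regions passed the distance limit but were 20 kb or longer and were left out. The other 10476 autosomal regions under 20 kb, chosen by the same H3WT rule but within 100 kb of a start, are called nearer regions and served as the comparison. H3WT values of members are therefore a description, and tests were run only in the mutants and with the other antibody.

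The assay was CUT&RUN, in which an antibody guides a nuclease to chromatin and the freed DNA is sequenced. The cells were of the mouse C3H 10T1/2 line, which has properties of mesenchymal progenitors. Every group carried a lentiviral transgene under an EF1 promoter that encodes human histone H3.1 with C-terminal HA and FLAG tags, either unchanged (H3WT) or with a tail arginine replaced by cysteine at the position in the name (H3R26C, H3R17C, H3R8C and H3R2C). The endogenous H3 genes were intact in all groups, so the tagged histone was only part of the H3 pool, and neither an age of the cultures nor a clone per genotype was given in the sources used here. Peak lists of 29 of the 60 labelled samples were used, all of them from anti-H3K27me3 and anti-HA. Samples with the IgG control antibody or anti-H3K4me3 were not used here. Of the 3 labelled replicates in every one of these 10 groups, 2 had lists with identical values and counted as 1, which left 9 independent anti-H3K27me3 lists (2 per genotype, but 1 for H3R17C, whose replicate 1 list was left out because its file is named for another mark) and 10 anti-HA lists. The study describes its replicates as independent biological ones, but since identical lists left 2 per group at most, p-values measure only the spread between lists.

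H3K27me3 is deposited by Polycomb Repressive Complex 2 (PRC2), whose EZH1 or EZH2 subunit transfers the methyl groups and whose EED subunit binds the finished mark, which helps the mark spread along chromatin. It is best known from the promoters of developmental regulators that are silent in a given cell type. Gene deserts often flank such regulators and can hold their distant enhancers, and the mark there can form islands that have no promoter of their own.

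The members covered 8.12 Mb, or 0.892% of the 909.8 Mb of autosomal sequence that lies more than 100 kb from a protein-coding start. Their length ran from 0.200 to 19.9 kb with a median of 4.65 kb, and the distance to the nearest start from 100.1 to 945 kb with a median of 156 kb. Each autosome held 31 to 149 of them. The region just inside the distance limit lay 100.1 kb from Six2, a developmental homeobox gene, with scaled signals of 1.91 and 1.90 in H3WT (total peak signal over the region, where 1 is that of a typical region shared by the mutant lists), and the one just outside lay 99.9 kb from Hdac2 at 1.07 and 0.985. At the length limit, a region of 19.9 kb nearest Tle3 was inside and one of 20.1 kb nearest Trib2 was outside. The name gene desert holds for distance alone. Of the members, 16.0% lay within the body of a long protein-coding gene, 14.1% overlapped an exon of any gene, 3.57% an exon of a protein-coding gene, and 8.27% had the start of a non-coding gene within 1 kb.

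In G and C content and in CG dinucleotides the members stood between nearer regions and all gene-desert sequence. The G and C content was 41.6% of the pooled bases, against 44.5% in nearer regions and 39.5% in all gene-desert sequence. CG dinucleotides, the sites of DNA methylation, numbered 0.816 per 100 bases, against 1.11 and 0.625. Soft-masked repeats made up 22.2% of the bases, below both the 23.4% of nearer regions and the 37.2% of gene-desert sequence.

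Sequences are shown for a pair of members with the highest H3WT signal and for members named below for differences between mutants. They come from the interval of highest H3WT signal, with CG dinucleotides in capitals. They were read from the RefSeq assembly GRCm38, the same build as mm10, and where the interval of highest signal was longer than 300 bases its central 300 bases were taken. The first pair has the highest H3WT signal of all members and also drew HA peaks in all 10 anti-HA lists. The first of these is soft-masked over its whole length and the second holds 4 CG dinucleotides in 50 bases.
Region nearest Rab10 (chr12:3109901-3109950, mm10, plus strand): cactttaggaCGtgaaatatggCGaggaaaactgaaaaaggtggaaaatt
Region nearest Esp38 (chr17:39847701-39847750, mm10, plus strand): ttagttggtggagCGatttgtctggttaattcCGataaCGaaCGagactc
The next pair lost its peak in H3R2C, and the Dmrta1 sequence comes from a member that lost its peak in H3R26C. None of these is fully soft-masked, and only the Parp8 stretch of the 3 holds a CG dinucleotide.
Region nearest Teddm3 (chr16:21027451-21027500, mm10, plus strand): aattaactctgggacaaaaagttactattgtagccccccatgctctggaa
Region nearest Parp8 (chr13:116709901-116709950, mm10, plus strand): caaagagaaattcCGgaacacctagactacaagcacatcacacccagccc
Region nearest Dmrta1 (chr4:89565551-89565750, mm10, plus strand): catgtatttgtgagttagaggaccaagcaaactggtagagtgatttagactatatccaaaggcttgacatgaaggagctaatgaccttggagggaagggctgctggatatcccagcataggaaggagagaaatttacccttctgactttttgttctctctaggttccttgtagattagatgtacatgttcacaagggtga
The last pair comes from the centres of long intervals, of 3000 and 7250 bases, so it need not lie at the point of highest signal. The Tprg member had no peak in H3R8C and H3R26C, and the Shisa2 member had a peak in H3WT and H3R26C alone. The printed Tprg stretch holds 1 CG dinucleotide and the Shisa2 stretch 2.
Region nearest Tprg (chr16:25106751-25107050, mm10, plus strand): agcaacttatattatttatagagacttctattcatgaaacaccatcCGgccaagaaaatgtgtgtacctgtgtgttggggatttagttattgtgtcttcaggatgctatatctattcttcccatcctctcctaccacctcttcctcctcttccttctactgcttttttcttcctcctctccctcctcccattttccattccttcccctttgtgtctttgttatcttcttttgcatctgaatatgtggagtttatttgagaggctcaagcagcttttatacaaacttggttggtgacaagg
Region nearest Shisa2 (chr14:59765326-59765625, mm10, plus strand): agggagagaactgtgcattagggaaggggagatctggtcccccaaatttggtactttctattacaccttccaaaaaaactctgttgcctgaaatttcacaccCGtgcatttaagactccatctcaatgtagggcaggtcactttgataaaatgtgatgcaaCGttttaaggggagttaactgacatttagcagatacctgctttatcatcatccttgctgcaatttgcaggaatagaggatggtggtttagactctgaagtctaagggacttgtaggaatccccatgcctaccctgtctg

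The first question was whether gene-desert regions were called in the mutants as often as regions nearer to genes. A region counted as called when any base of it lay in a peak. In H3R2C 69.7% of the members were called in the list of replicates 1 and 2 and 55.6% in that of replicate 3, while the nearer regions were called at 83.7% and 73.7%. H3R8C called 73.7% and 76.0% of the members and 83.6% and 86.4% of the nearer regions. The single H3R17C list called 74.1% and 81.2%. H3R26C called 84.3% and 63.6% of the members and 83.3% and 68.6% of the nearer regions, so that its list of replicates 1 and 2 alone had the opposite order. Across the 7 mutant lists the call rate of members was lower by 9.06 ± 6.20 percentage points (SD, n = 7), and 6 of the 7 lists were below 0 (p = 0.03125 in a two-sided exact sign-flip permutation test that cannot go below 0.0156). The difference was -14.0 and -18.1 points in H3R2C, -9.87 and -10.4 in H3R8C, -7.09 in H3R17C, and 1.02 and -4.95 in H3R26C.

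**Figure D1:**
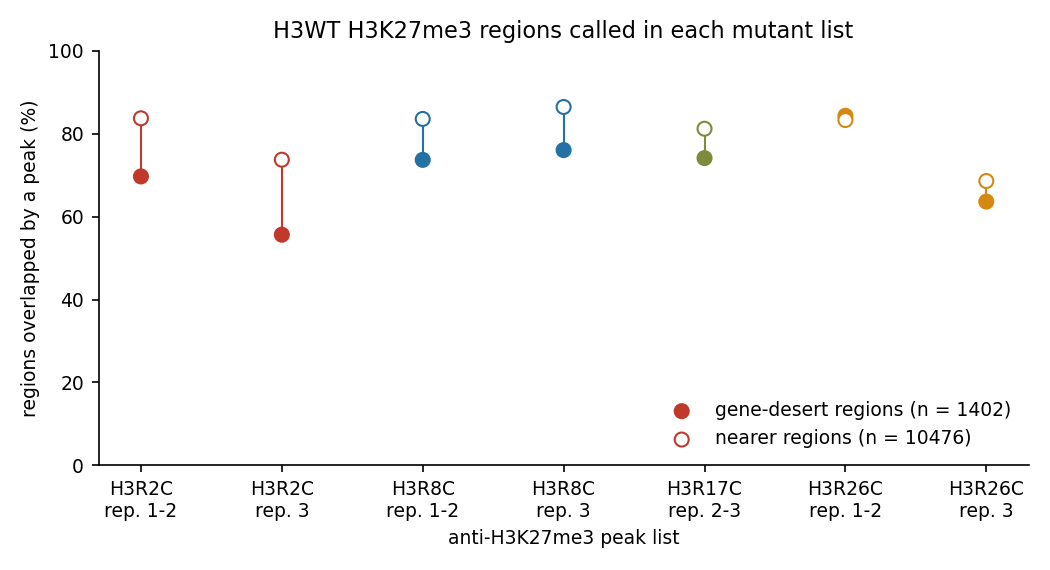
Share of regions overlapped by a peak (%, y axis) in each of the 7 mutant anti-H3K27me3 lists (x axis), with filled points for the 1402 gene-desert regions and open points for the 10476 nearer regions. The filled point lies below the open one in 6 lists and slightly above it in H3R26C replicates 1-2 (84.3% against 83.3%).

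The p of this test rests on single lists. It was 0.0625 without either H3R2C list, either H3R8C list, the H3R17C list or H3R26C replicate 3, with differences from -9.74 to -7.55 points, where 0.03125 is the smallest p that 6 lists allow. Call rates moved with the length that a list covered. In each genotype with 2 lists the one that covered more called more members, with 130 Mb and 77.0 Mb in H3R2C (69.7% and 55.6% of the members), 109 Mb and 96.9 Mb in H3R8C (76.0% and 73.7%) and 120 Mb and 64.2 Mb in H3R26C (84.3% and 63.6%), while the H3R17C list covered 82.7 Mb. In an alternative chosen after seeing the data, each mutant list was held to its strongest peaks up to the least covered length, that of H3R26C replicate 3. The difference was then -11.1 ± 5.45 points (SD, n = 7) and below 0 in 7 of 7 lists (exact sign-flip permutation p = 0.0156).

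A lower call rate in deserts was not particular to the mutant lists. Deserts chosen by the same limits from both lists of a mutant were also called less than nearer regions in H3WT, at 61.1% against 70.6% for those of H3R2C, 71.8% against 83.2% for those of H3R8C and 65.5% against 78.6% for those of H3R26C.

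A peak list records whether coverage passed a level, so a member without a peak lay below that level rather than at 0, and fewer cells with the mark cannot be told apart from less of it per cell. Members had weaker H3WT signal than nearer regions, and weak regions were called less in both sets. When all regions were split by H3WT signal into 4 groups of equal size, the difference in the highest group was -2.61 points over 253 members (exact sign-flip permutation p = 0.0156), and in the lowest group -6.95 points over 440 members (p = 0.125, exact sign-flip permutation test). In the highest group H3R2C called 86.4% of the members and 92.8% of the nearer regions, H3R8C 96.8% and 98.5%, and H3R26C 94.3% and 94.5%.

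In H3R2C and in the H3R17C list the call rate was lower in each successive class of distance beyond 10 kb from a start. The H3R2C rate averaged 80.9% to 10 kb, 79.8% from 10 to 50 kb and 74.6% from 50 to 100 kb. In the same classes H3R8C had 85.7%, 82.7% and 80.9%, H3R17C 81.2%, 79.7% and 77.4%, and H3R26C 73.4%, 73.3% and 75.9%. Among members the H3R2C rate was 67.4% from 100 to 200 kb (984 members; 60.1% and 74.8% in the 2 lists), 54.4% from 200 to 400 kb (366 members; 48.1% and 60.7%) and 30.8% beyond 400 kb (52 members; 25% and 36.5%). Both H3R2C lists therefore followed the same order. H3R8C went from 76.4% through 71.2% to 72.1% over the same 3 classes of members, H3R17C from 74.7% through 74.0% to 63.5%, and H3R26C from 76.5% through 69.0% to 60.6%. These classes were not tested against each other, and the class beyond 400 kb is small.

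**Figure D2:**
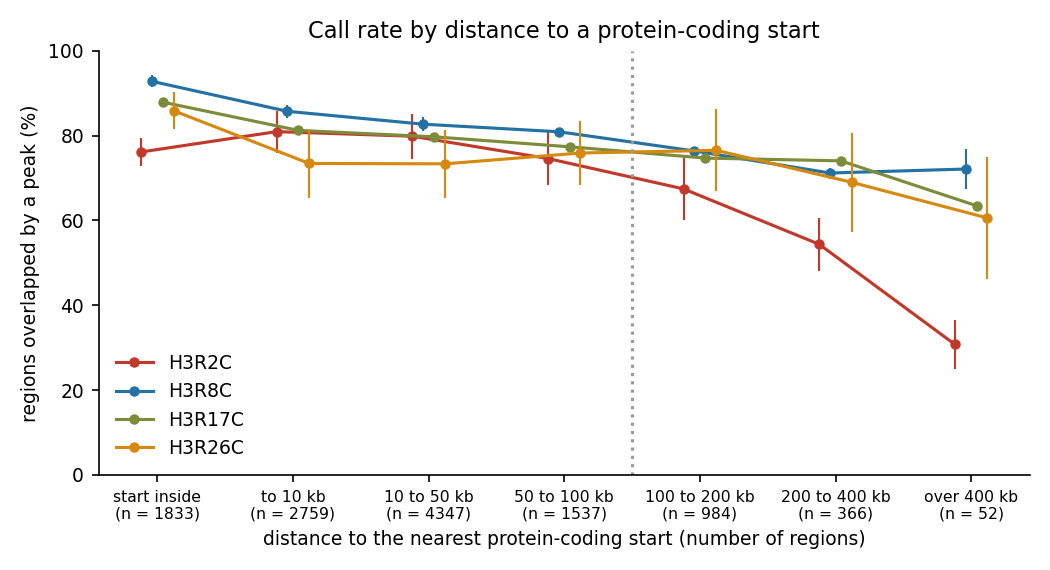
Share of regions overlapped by a peak (%, y axis) by distance to the nearest protein-coding start (kb classes, x axis), with 1 line per genotype at the mean of its lists, bars from the lower to the higher list, and a dotted line at the 100 kb limit. The H3R2C line ends at 30.8% beyond 400 kb, where the other 3 genotypes lie between 60.6% and 72.1%.

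Chromosome 13 had the lowest call rate of members in both H3R2C and H3R17C, and in H3R8C only chromosome 18 was lower, at 52.9%. In H3R2C the next lowest was chromosome 5, at 51.6%. Of the 106 members on chromosome 13, 28.8% were called in H3R2C, 58.5% in H3R8C, 60.4% in H3R17C and 78.8% in H3R26C. Its nearer regions were called at 65.9%, 71.5%, 72.0% and 84.5%. It held 65 of the 380 members without any H3R2C peak but 9 of the 194 without any H3R26C peak. Without chromosome 13 the H3R2C call rates were 69.3%, 59.0% and 34.0% in the 3 classes of members, and the difference between members and nearer regions over all mutant lists was -8.08 points (exact sign-flip permutation p = 0.03125). The highest H3R2C rate was on chromosome 15, at 86.7%.

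The study set H3R2C and H3R26C apart from the other substitutions, so the call rates of both pairs of genotypes were compared. H3R2C and H3R26C lists called 68.3 ± 12.1% of the members (SD, n = 4) and H3R8C and H3R17C lists 74.6 ± 1.25% (SD, n = 3). The difference of -6.29 points was smaller than the spread within the first pair (p = 0.457 in a two-sided exact permutation test that cannot go below 0.0571). H3R2C averaged 62.7% and H3R26C 74.0%, and the 2 lists of either genotype lay apart as well. With every mutant list held to the least covered length the sign turned, to 3.31 points (exact permutation p = 0.8).

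Members without a peak in any list of a genotype are called lost there, in the sense of this comparison with the H3WT lists alone. Because H3WT peaks chose the members, some loss in every other genotype follows from the choice, and the counts are read against all 14326 regions called in both H3WT lists. H3R2C lost 380 members (27.1%), against 19.7% of all regions. H3R8C lost 241 (17.2%), against 9.59%. The 1 list of H3R17C lacked 363 (25.9%), against 17.9%. H3R26C lost 194 (13.8%), close to the 13.2% of all regions. A peak in every list of the genotype was found for 735 members in H3R2C, 938 in H3R8C, 1039 in H3R17C and 866 in H3R26C.

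Different genotypes lost different members in part. No genotype lost 720 of the 1402 members, 142 were lost in H3R2C alone, 101 in H3R17C alone, 55 in H3R8C alone and 48 in H3R26C alone. All 7 mutant lists called 413 members (29.5%, against 45.4% of nearer regions), and 28 members (2.00%, against 0.983%) had no peak in any of them. Lost members were weaker and shorter in H3WT than members kept in every list. In H3R2C the lost members had a median H3WT scaled signal of 0.304 and a median length of 3.73 kb, against 0.608 and 5.7 kb for those kept, and in H3R26C 0.294 and 3.55 kb against 0.564 and 5.4 kb. Their median distance from a start was 184 kb against 149 kb in H3R2C and 172 kb against 151 kb in H3R26C. CG dinucleotides numbered 0.734 per 100 bases in members lost in H3R26C and 0.853 in those kept. The other genotypes differed less, with 0.831 and 0.826 in H3R2C, 0.795 and 0.822 in H3R8C, and 0.822 and 0.815 in H3R17C.

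Signals within peaks were compared between mutants, which had no part in choosing the members. The scaled signal is the total signal of all peaks over a region, divided by the median total signal of the 6449 regions called in all 6 lists of H3R2C, H3R8C and H3R26C, so that 1 is a typical shared region and 0 means no peak. Its median over members with a peak was 0.457 and 0.422 in the H3WT lists and 0.481 to 0.649 in the mutant lists. The members with the highest H3WT signal are given as a description. A 0.500 kb region at chr12:3109801-3110300, nearest Rab10 at 200 kb and soft-masked over 66.6% of its bases, reached 55.8 and 39.2 in H3WT and 16.98 to 75.5 in the mutants. A 5.9 kb region at chr17:39842951-39848850, nearest Esp38, had 10.4 and 10.9 in H3WT and, at 10.1 CG dinucleotides per 100 bases, was far richer in CG than the pooled members. It overlaps the annotated genes AY036118, CT010467.1, Gm26917 and Gm42418. Both the Rab10 and the Esp38 region also met HA peaks in all 10 anti-HA lists. As IgG lists were not used, whether the signal at these regions is specific to the antibody was not tested. Whether reads of repeated sequence from elsewhere add to it was not tested either. These values therefore need not mean the most H3K27me3. The next were regions nearest Gm31371 (5.69 and 5.15), Irf8, an interferon regulatory factor of immune cells (4.73 and 5.18), and Melk, a cell-cycle kinase (4.49 and 4.54). All 5 were called in all 7 mutant lists.

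Between H3R2C and H3R8C, 108 members (7.70%) had lower signal in H3R2C, where 9.37% of all regions did, and 65 (4.64%) had higher signal, where 4.59% did (limma, adjusted p under 0.05 over all 14326 regions). Of the nearer regions 7.08% were lower and 5.39% higher, so the members' shares lay close to both sets. Of the 108, 77 had no peak in either H3R2C list, and of the 65, 43 had none in either H3R8C list. Between H3R26C and H3R8C, 43 members (3.07%, background 3.92%) were lower and 44 (3.14%, background 1.95%) higher in H3R26C, and of the nearer regions 4.09% and 2.01%. Between H3R2C and H3R26C, 168 members (11.98%, background 11.5%) were lower and 77 (5.49%, background 9.48%) higher in H3R2C, whereas 940 nearer regions (8.97%) were lower and 1194 (11.4%) higher. The median log2 difference between H3R2C and H3R26C was -0.25 over the members and -0.03 over all regions. It was -0.11 and -0.08 between H3R2C and H3R8C, and 0.00 and -0.02 between H3R26C and H3R8C.

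These counts depend on each list and on the fit. With the replicate number as a block, the totals of 173, 87 and 245 became 58, 0 and 150. For H3R2C against H3R8C, the total of 173 was 59 without H3R2C replicates 1 and 2, 84 without H3R2C replicate 3, 48 and 54 without the first and the second list of H3R8C. For H3R26C against H3R8C, the total of 87 was 43 and 51 without the first and the second H3R8C list. For H3R2C against H3R26C, the total of 245 was 92 and 107 without the first and the second H3R2C list and 136 without either H3R8C list. Without H3R2C replicate 3 the balance of this last comparison turned, to 36 lower and 71 higher in H3R2C. Unscaled signals gave no call in any of these comparisons (limma), with 141 lower and 70 higher members at an unadjusted p under 0.05 in the last.

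The members named next had the lowest limma p in each direction of each comparison. In each, 1 of the genotypes compared had no peak in both lists, so scaled signals are given and no fold. A pair of lists at 0 has no spread on this scale, which bears on the rank of such members. With signal as deposited none of these calls held. A 17.95 kb region at chr16:21018551-21036500, 117.5 kb from Teddm3, had 1.49 and 1.99 in H3WT, 2.60 and 2.83 in H3R8C, 1.299 and 1.41 in H3R26C and 0.683 in H3R17C, and no peak in either H3R2C list (limma adjusted p = 0.00963 against H3R8C and 0.00774 against H3R26C). A region at chr13:116705201-116713750, 211 kb from Parp8, an ADP-ribosyltransferase gene, had 1.08 and 1.37 in H3WT, 1.35 and 1.52 in H3R8C, 0.429 in H3R17C, and 2.61 and 2.81 in H3R26C, while both H3R2C lists lacked a peak (same adjusted p values). The H3R2C lists held no peak over 3277 and 3175 kb around it. In both members every list of the other genotypes had a peak, which the choice of members fixes for H3WT.

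On chromosome 13 a 14.75 kb region at chr13:71688201-71702950, 256 kb from the Iroquois homeobox gene Irx1, had 1.35 and 2.02 in H3WT, 0.643 and 0.681 in H3R8C, 0.913 in H3R17C and 3.96 and 2.92 in H3R26C, with no peak in H3R2C (limma adjusted p = 0.00774 against H3R26C). H3R26C lay above the H3WT lists there, which chose the region. The region at chr8:107693451-107700900, nearest the proteasome subunit gene Psmd7, had no peak in H3R2C and H3R26C but 0.826 and 0.449 in H3WT, 0.795 and 0.678 in H3R8C and 0.180 in H3R17C (limma adjusted p = 0.00963 against H3R2C and 0.0138 against H3R26C).

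Other members kept their peaks in H3R2C and had none in H3R8C or H3R26C. The region at chr16:25100751-25110450, nearest Tprg, had 0.835 and 0.552 in H3WT, 1.39 and 1.26 in H3R2C and 0.571 in H3R17C, and no peak in either of these genotypes (limma adjusted p = 0.00963 against H3R8C and 0.00774 against H3R26C). The same pattern held at chr8:90637801-90651500 nearest Gm19935 (1.44 and 0.416 in H3WT, 1.45 and 1.295 in H3R2C and 1.37 in H3R17C) and at chr11:19766651-19771450 nearest Spred2, an inhibitor of growth factor signalling to ERK (0.35 and 0.38 in H3WT, 0.559 and 0.501 in H3R2C and 0.262 in H3R17C). Around the Tprg region the peak-free stretch measured 1190 and 1192 kb in H3R8C and 2564 and 2581 kb in H3R26C.

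H3R26C alone lacked a peak at a 15.55 kb region at chr4:89558401-89573950, 105 kb from Dmrta1, a DM-domain transcription factor gene. The scaled signal was 4.37 and 3.53 in H3WT, 2.48 and 3.60 in H3R2C, 3.96 and 3.12 in H3R8C and 4.02 in H3R17C (limma adjusted p = 0.0138 for H3R26C against H3R8C and 0.00774 for H3R2C against H3R26C). All 7 other lists were at 2.48 or above there, and the H3R26C lists had no peak over 863 and 877 kb around it. The region at chr3:38107901-38118100, 337 kb from Ankrd50, likewise had 1.16 and 1.04 in H3WT, 2.04 and 1.77 in H3R2C, 1.64 and 1.32 in H3R8C, and 1.08 in H3R17C, while both H3R26C lists lacked a peak (limma adjusted p = 0.0138 against H3R8C and 0.00774 against H3R2C).

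Only H3R26C among the mutants kept a peak at 3 further members. The region at chr14:59760501-59769150, nearest Shisa2 and inside the body of Atp8a2, had 0.943 and 0.479 in H3WT and 0.595 and 0.659 in H3R26C. At chr7:117713851-117717900, nearest Xylt1, the H3R26C values were 0.437 and 0.403 against 0.387 and 0.514 in H3WT. At chr13:71066051-71071150, nearest the metalloprotease gene Adamts16, they were 1.54 and 1.24 against 0.299 and 0.545 in H3WT. Each was higher in H3R26C than in H3R8C (limma adjusted p = 0.0138), but with the replicate number as a block no comparison of H3R26C with H3R8C was called.

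**Figure D3:**
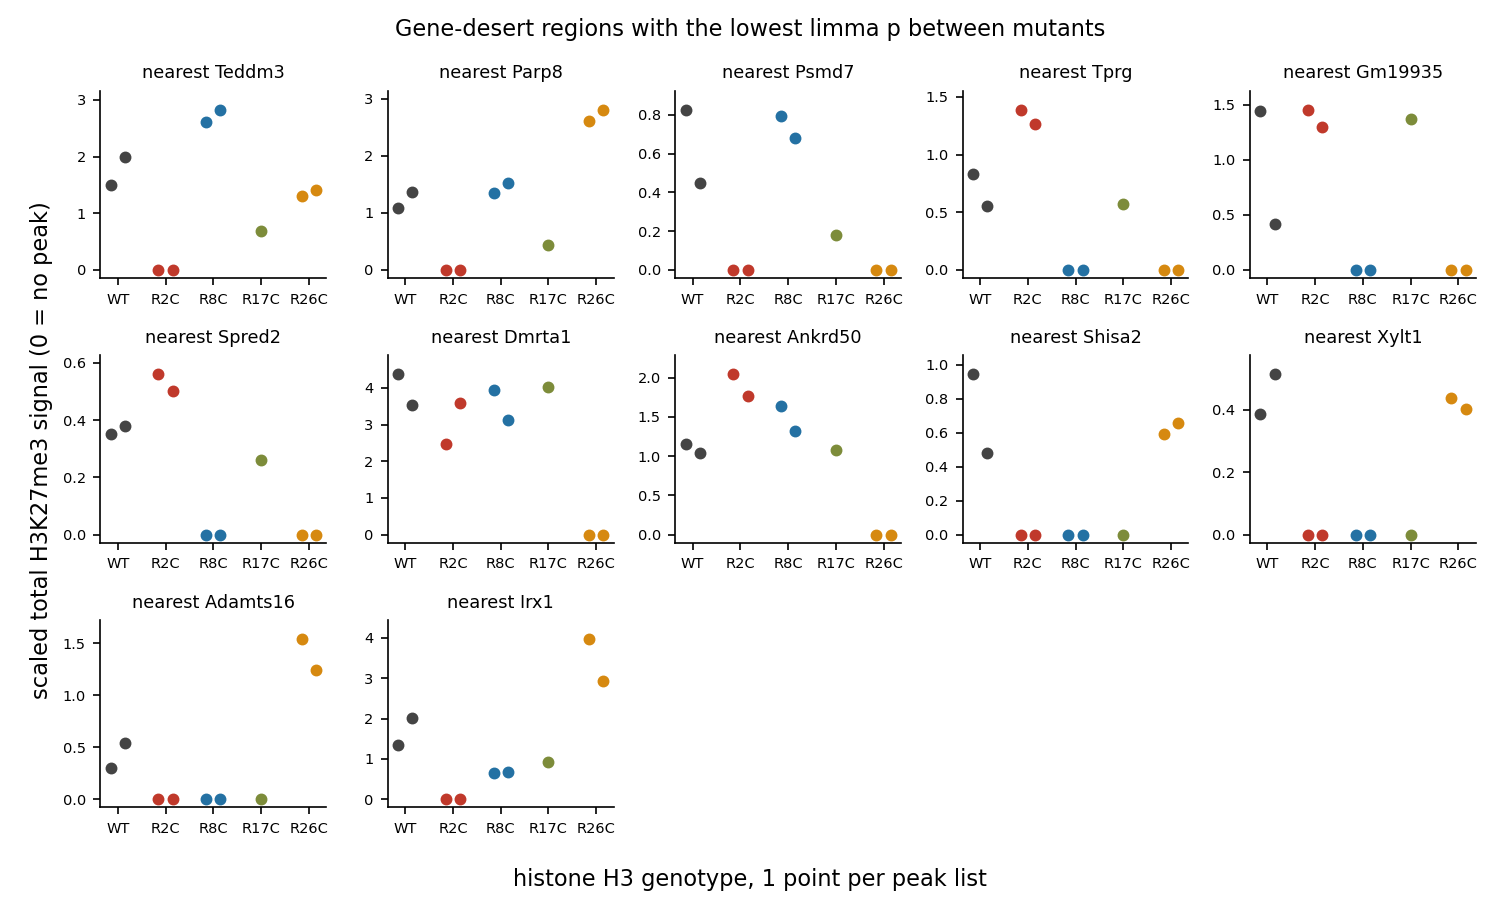
Scaled H3K27me3 signal (linear y axis with its own range in each panel, where 0 means no peak) of the 12 gene-desert regions with the lowest limma p, with 1 panel per region, genotypes along the x axis and 1 point per list. Both H3R2C points lie at 0 for Teddm3, Parp8 and Irx1, and both H3R26C points lie at 0 for Dmrta1, Ankrd50 and Tprg.

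A difference without loss of the peak was measured at 431 members called in all 6 lists, of which 34 differed between H3R2C and H3R8C, 15 between H3R26C and H3R8C and 41 between H3R2C and H3R26C. In H3R2C against H3R8C 4.41% of these members were lower and 3.48% higher, where 5.29% and 3.26% of all 6449 such regions were. In H3R26C against H3R8C the shares were 2.32% and 1.16% (background 2.02% and 0.713%), and in H3R2C against H3R26C 6.03% and 3.48% (background 7.16% and 6.5%). Only the excess of higher calls in H3R26C over H3R8C lay above its background by over 1.5 times, on 5 members. The following were chosen after their values were seen. At chr1:56244601-56248350 nearest Hsfy2 the scaled signal was 0.363 and 0.220 in H3R2C and 2.99 and 3.45 in H3R8C (log2 difference -2.69 ± 0.20 SE, limma adjusted p = 0.00963). At chr15:41119051-41136400 nearest Oxr1, an oxidation resistance gene, it was 3.87 and 5.61 in H3R2C but 0.376 and 0.215 in H3R8C (3.19 ± 0.32 SE, adjusted p = 0.0117), with 2.73 and 2.00 in H3WT, 2.58 in H3R17C and 3.34 and 2.15 in H3R26C. H3R8C was thus the low genotype there. At chr13:71094301-71103200 nearest Adamts16 it was 0.180 and 0.220 in H3R2C, 0.379 and 0.303 in H3R8C and 1.83 and 1.78 in H3R26C (H3R2C minus H3R26C, -2.19 ± 0.21 SE, limma adjusted p = 0.00969). At chr6:99997101-100005300 nearest Rybp, a Polycomb Repressive Complex 1 subunit gene, it was 2.52 and 3.20 in H3R2C and 0.516 and 0.338 in H3R26C (2.21 ± 0.23 SE, adjusted p = 0.0109).

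Members without a peak often followed each other along the chromosome. Consecutive members within 1 Mb formed 1081 pairs, with a median gap of 7.35 kb. In H3R2C a member was uncalled in 63.2% and 66.6% of the cases where the preceding member was uncalled, and in 17.02% and 28.9% where it was called. The same shares were 52.2% and 50.8% against 15.7% and 14.9% in H3R8C, 37.3% against 21.2% in H3R17C, and 42.1% and 55.5% against 10.3% and 25.8% in H3R26C. The difference was 33.4 ± 9.22 percentage points (SD, n = 7) and above 0 in 7 of 7 lists (exact sign-flip permutation test, two-sided, p = 0.0156, the smallest the design allows). A single mutant peak can meet several close members, and neighbours were not matched for H3WT signal or length. A difference above 0 was therefore likely beforehand, and the p measures only how far the lists agree. The same value was not computed for nearer regions, so it is not shown to be particular to members.

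A run is an unbroken series of consecutive members within 1 Mb of each other that all lacked a peak in every list of the genotype. H3R2C had 41 runs of at least 3 members, which held 176 of its 380 lost members (46.3%). H3R8C had 19 such runs with 76 members (31.5%), H3R17C 21 with 70 (19.3%, from 1 list) and H3R26C 12 with 57 (29.4%). The longest run held 12 members in H3R2C, 13 in H3R8C, 5 in H3R17C and 13 in H3R26C. A genotype that lost more members has more room for runs, and the lost share was 27.1% in H3R2C and 13.8% in H3R26C. Runs were not counted among nearer regions, and these counts do not compare clustering between genotypes.

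The longest H3R2C run reached across a locus of Iroquois homeobox genes, transcription factors that pattern embryonic tissues. It spanned chr13:71672751-72740500 (1068 kb) with Irx1 and Irx2 as nearest genes, and its 12 members had H3WT scaled signals of 0.240 to 1.69. All members but the last lay within the first 183.75 kb, and the last began at 1062 kb. The H3R2C peaks that remained in the span lay in the gap between them. Of the 12, the H3R8C lists each called 5, H3R17C 7 and H3R26C 12 and 10. The span also held 8 other H3WT regions, 4 of which had no H3R2C peak, and the lists had 6 and 4 peaks in it in H3R2C, 11 and 9 in H3R8C, 14 in H3R17C, 33 and 36 in H3R26C and 32 and 28 in H3WT. H3R2C had the fewest, and H3R8C and H3R17C also had fewer than H3WT. The second H3R2C run, chr8:92217401-92563900 (346.5 kb), had the related genes Irx5 and Irx6 as nearest genes, and of its 8 members H3R8C called 5 and 2, H3R17C 6 and H3R26C 7 and 6.

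The longest run of H3R8C and that of H3R26C were the same stretch. It spanned chr1:61084601-61293000 (208.4 kb) with 13 members, the nearest gene being Icos, a costimulatory receptor of T cells. H3R2C called 10 and 7 of the 13 and H3R17C 7, and H3WT had 16 and 14 peaks in the span. No peak lay over 4121 and 3914 kb in H3R8C and 3737 and 3952 kb in H3R26C, although H3WT itself had none for 1705 and 1569 kb beyond the run. Anti-HA lists held 0 to 2 peaks in it in every genotype.

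Shorter runs were seen in both lists of a genotype as well. The second H3R8C run, chr15:41137351-41260050 (122.7 kb) with 5 members near Oxr1, adjoins the Oxr1 region described above, and all 5 were called in every list of H3R2C, H3R17C and H3R26C. The second H3R26C run, chr3:80119001-80235000 (116.0 kb) with 9 members near Fam198b, was called in part elsewhere (5 and 3 members in H3R2C, 7 and 7 in H3R8C, 5 in H3R17C), and H3R26C had no peak over 537 and 655 kb. The longest H3R17C run, chr7:131720851-131855750 with 5 members near Bub3 and Gpr26, was also without any peak in both H3R2C lists.

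**Figure D4:**
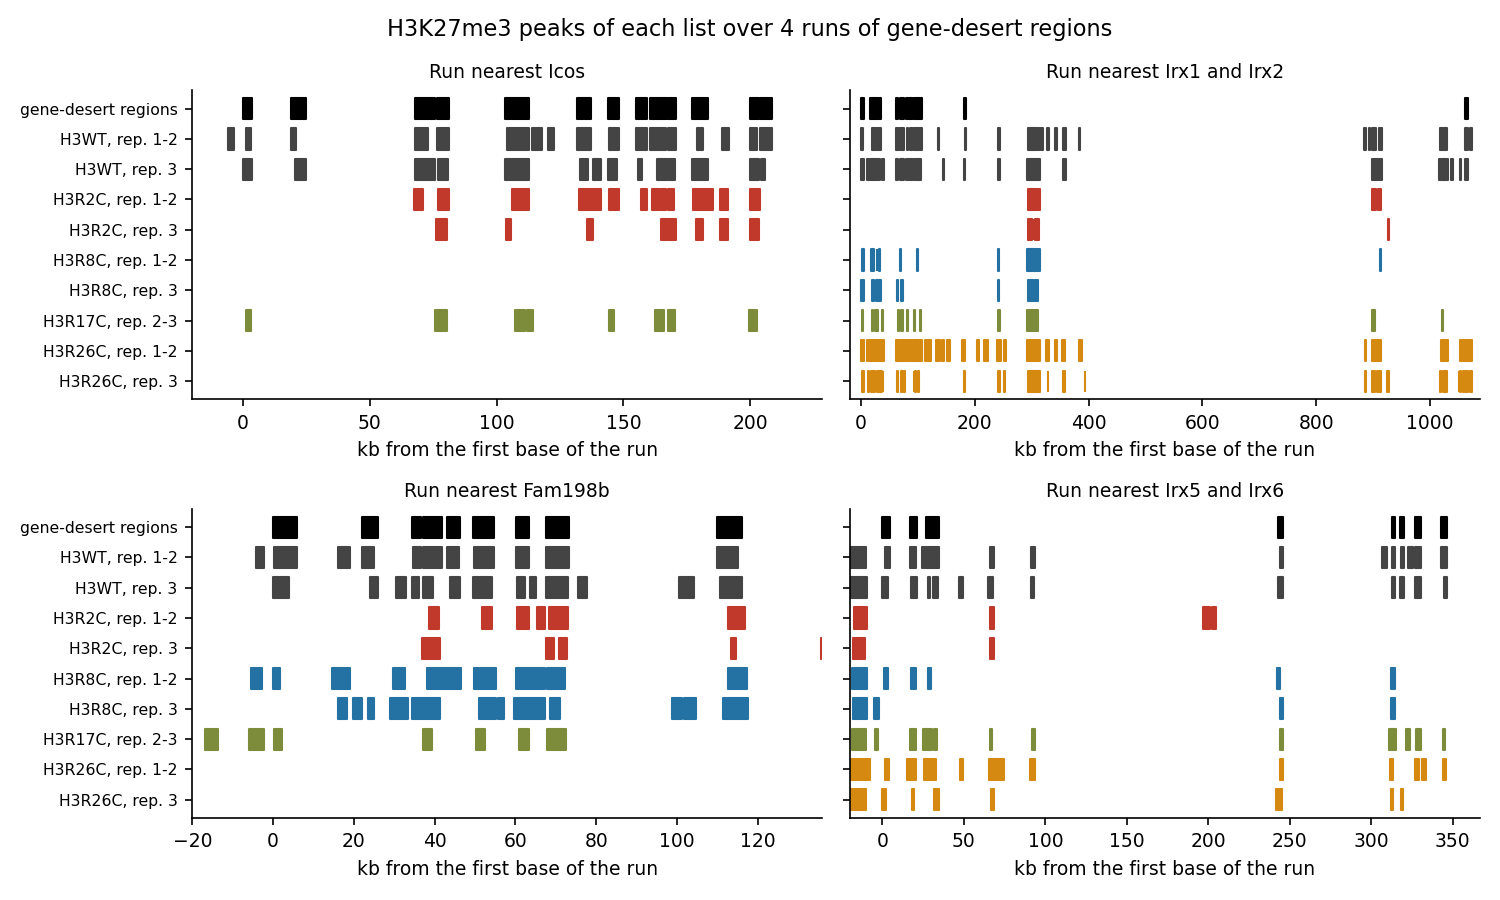
Peaks of each anti-H3K27me3 list (bars, 1 row per list) and gene-desert regions (top row, black) over 4 runs, by distance from the first base of the run (kb, x axis). The H3R2C rows have no bar under the 12 members near Irx1 and Irx2, and the H3R8C and H3R26C rows are empty over the 13 near Icos.

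The anti-HA lists show where anti-HA signal formed peaks, and they had no part in choosing the members. HA peaks covered 8.95% and 4.12% of the members' bases in H3WT, against 3.26% and 1.42% of all gene-desert sequence. In the mutants they covered 1.57% to 4.17% of the members' bases and 0.502% to 1.48% of the sequence. The difference was 1.89 ± 1.51 percentage points (SD, n = 10) and above 0 in 10 of 10 lists (exact sign-flip permutation test, two-sided, p = 0.00195, the smallest the design allows). It was 1.20 ± 1.48 points without the members that met HA peaks of all 10 lists. The members are places where peaks form with another antibody. The gene-desert sequence was not limited to bases where reads map, and 37.2% of it was soft-masked, against 22.2% of the members. Without IgG lists, how much of the difference is due to tagged histone was not tested. Members were overlapped by an HA peak at 6.21% to 13.6%, and nearer regions at 11.9% to 24.1%. Most members, 879 (62.7%), met no HA peak in any list.

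A small set of members recurred in the HA lists. HA peaks of all 10 lists met 22 members of 80.6 kb together, 9 of them within chr8:20026651-20509000. They include the Rab10, Esp38 and Oxr1 regions described above. Of these 22, 16 were called for H3K27me3 in all 7 mutant lists. Soft-masked repeats made up 30.8% of their pooled bases, against 22.2% in all members. CG dinucleotides numbered 1.42 per 100 pooled bases, against 0.816, a pooled value that includes the Esp38 region at 10.1. The median per region went the other way, at 0.688 in the recurrent members and 0.762 in all members.

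On the log2 scale the ratio of HA coverage in members to that in gene-desert sequence was 1.29 ± 0.29 (SD, n = 8) in the mutants and 1.496 ± 0.052 (SD, n = 2) in H3WT, a difference of -0.20 (p = 0.444 in a two-sided exact permutation test that cannot go below 0.0444). Without the 22 recurrent members it was 0.70 ± 0.37 (SD, n = 8) and 1.296 ± 0.052 (SD, n = 2), a difference of -0.60. These 22 were chosen on the same HA lists, so this value is a description with no test. Leaving them out takes a similar number of percentage points of coverage from each list, which lowers the ratio more in lists of low coverage. The sign depended on how many peaks were taken, with 0.39 when every list gave the same number of top peaks (exact permutation p = 0.0889) and 0.41 with the upper 50% of each list (exact permutation p = 0.133). HA lists ranged from 15344 to 52083 peaks.

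**Figure D5:**
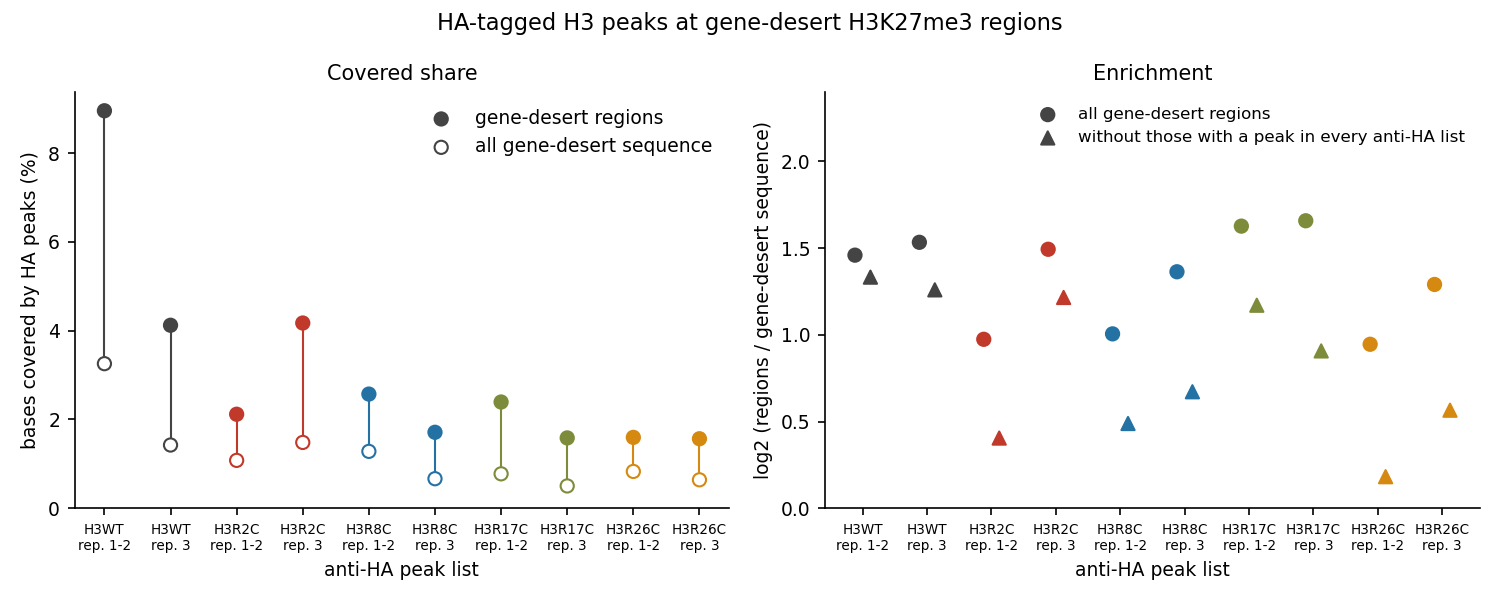
Left, share of bases covered by HA peaks (%, y axis) in each of the 10 anti-HA lists (x axis) for gene-desert regions (filled) and all gene-desert sequence (open). Right, the log2 ratio of both shares with all regions (circles) and without the 22 recurrent ones (triangles), where each triangle lies below its circle and the triangles of H3WT lie above those of all mutant lists.

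HA overlap was also set beside the loss of H3K27me3 in the same genotype, without a test. Among members lost in H3R2C 5.79% and 5.26% met an HA peak in the 2 H3R2C lists, against 15.4% and 21.0% of those kept in every list. The shares were 4.98% and 2.90% against 9.17% and 8.85% in H3R8C, and 4.41% and 2.20% against 13.4% and 9.43% in H3R17C. H3R26C had the opposite order, with 11.3% and 10.3% of the lost members against 6.70% and 6.93% of those kept. Any shared base counted as overlap, and lost members were shorter, with medians of 3.73 against 5.7 kb in H3R2C and 3.55 against 5.4 kb in H3R26C. Those kept also include 16 of the 22 members that met HA peaks of all 10 lists. The shares were not matched for length or signal.

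The members lay nearest to 474 protein-coding genes, of which 202 had 1 member and 93 had at least 5. The gene named is the nearest start and need not be the gene such a region acts on. Developmental transcription factors were nearest to 103 members (7.35%, with 25 genes), whereas 3.18% of gene-desert sequence and 3.51% of nearer regions had such a gene as nearest. Zfhx3, Irx1, Irx5, Meis1 and Pax3 had the most. The call rate of these members was 45.1% in H3R2C (39.8% and 50.5% in the 2 lists), 67.0% in H3R8C, 77.7% in H3R17C and 75.7% in H3R26C, compared with 62.7%, 74.9%, 74.1% and 74.0% over all members. They include the H3R2C runs of 12 members near Irx1 and Irx2 and of 8 near Irx5 and Irx6, which lack H3R2C peaks by definition. The H3R2C rate thus rests in part on a few clustered loci and need not hold for the family. Adhesion and synapse genes, whose loci are long and often flanked by deserts, were nearest to 28 members (2.00%) but to 11.6% of the sequence, with call rates of 51.8%, 69.6%, 57.1% and 64.3% in the same order. Chemosensory receptor genes were nearest to 3 members (0.214%, against 1.33% of the sequence).

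Among single genes, ranked after the values were seen, Zfhx3, a zinc-finger homeobox gene, had most members with 19, of which H3R2C called 10 and 8, H3R8C 15 and 11, H3R17C 18 and H3R26C 15 and 6. Of the 16 members nearest Kif2a, a kinesin gene, H3R2C called 6 and 2 and H3R26C 15 and 11. Of the 15 nearest Mbd2, a methyl-CpG binding protein gene, H3R2C called 3 and 4 and H3R26C 6 and 0. Of the 12 nearest Klhl29, H3R2C called 3 and 2 and H3R26C 12 and 9. Of the 13 nearest Arid1b, a chromatin remodeller subunit gene, H3R2C called 13 in both lists and H3R26C 13 and 10. The low H3R2C rates were thus unevenly spread over the deserts.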

How the data were processed

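C3H 10T1/2 cells with a tagged H3 transgene were profiled by CUT&RUN. The authors aligned single-end reads to mm10 and called peaks with SEACR 1.3 (stringent, normalised mode, threshold 0.01). The deposited lists hold 2 signal values per peak, the coverage added up over its bases (total signal) and the highest coverage (maximum signal), neither scaled to a common depth. The study states read totals per library, which were left aside. The peak lists give no read counts per region, so no counting interval was set. Lists held 20077 to 24598 anti-H3K27me3 peaks with edges on a 50 bp grid. Lists of labelled replicates with identical values counted once, and H3R17C replicate 1 was left out.

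Overlaps, call rates and exact permutation tests were computed in Python 3.11.15 (scipy 1.17.1). Scaled total signal plus a pseudocount of 0.25 was fitted on the log2 scale over all 14326 regions with limma 3.58.1 (R 4.3.3, trended eBayes, Benjamini-Hochberg adjustment), from H3R2C, H3R8C and H3R26C lists. Named regions were the 5 of highest H3WT signal and, per contrast and direction, the 3 members with the lowest p among those past an adjusted p of 0.05, together with the 2 longest runs of each genotype. Gene families were lists of symbols. The members, lists and strata were chosen with earlier results of these data known. Labels share replicate numbers, but with 2 lists per genotype it could not be shown that the numbers pair them, so a block is an alternative only. Other alternatives changed the peaks taken, the overlap, the distance and length limits, the scaling, the pseudocount and the lists used.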

Additional observations from a re-analysis of the deposited data

How the results depend on the processing

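The lower call rate of members than of nearer regions kept its direction under all 16 other settings and all 9 left-out lists. It lost its call with start sites of all genes (-5.39 points, exact permutation p = 0.0625) and in the lowest of 4 groups by H3WT signal (-6.95, exact permutation p = 0.125), and with 1 list left out it ranged from -14.4 to -7.55. The difference between genotype pairs turned to 3.31 with mutant lists held to the least covered length, otherwise ranged from -12.1 to -3.11 and never passed its test. The neighbour difference of 26.2 to 38.0 points and the HA-covered difference of 1.04 to 2.22 points kept their calls. With lists left out these 3 ranged from -11.6 to -2.07, from 31.3 to 36.3 and from 1.46 to 2.01. The HA enrichment difference was 0.41 with the upper 50% of peaks, 0.39 with equal numbers of top peaks, -0.50 for members of 5 to 20 kb (exact permutation p = 0.0444) and -0.60 without recurrent HA regions, which were chosen on the same lists. That setting, the covered length and leaving out chromosome 13 were chosen after seeing the data. With lists left out it ranged from -0.25 to -0.15.

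Of the counts of members that differ (limma), in the order H3R2C against H3R8C, H3R26C against H3R8C and H3R2C against H3R26C, 173, 87 and 245 became 0, 0 and 0 with signal as deposited (169 lower and 71 higher, 101 and 72, and 141 and 70 at an unadjusted p under 0.05), 55, 19 and 58 among regions called in all 6 lists, 339, 199 and 391 with H3WT added to the fit, 593, 452 and 571 with all labelled replicates counted, and 0, 0 and 0 at an adjusted p under 0.001. Counting all labelled replicates enters identical lists as separate ones, which narrows the spread and inflates those counts. Adding H3WT brings into the fit the values that chose the regions. Maximum signal gave 131 in the second comparison. With lists left out they ranged from 48 to 229, 43 to 121 and 92 to 242. Without H3R26C replicate 3 the second split into 20 lower and 100 higher, and without H3R8C replicates 1 and 2 into 35 lower and 8 higher. Signal as deposited moved the median over all regions from -0.08, -0.02 and -0.03 to -0.25, -0.39 and 0.08.

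With the replicate number as a block the 3 counts were 58, 0 and 150 (40 lower and 18 higher in the first, 102 and 48 in the third), with 150 lower and 204 higher members of the second at an unadjusted p under 0.05. The block left the genotype pair difference at -6.54 points without H3R17C (exact permutation p = 0.444) and the HA difference at -0.20 (exact permutation p = 0.4). Of 288 refits of named members 261 kept their call and 27 lost it, 18 with signal as deposited, 6 with the block and 3 without an H3R8C list, and none reversed. The lists hold no read counts per region, so a weak member cannot be told apart from an undersampled one.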

Other observations

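Deserts can also be defined by peaks of both lists of another genotype under the same limits. The 1392 regions so chosen in H3R8C were called at 71.8% in H3WT, 68.6% in H3R26C, 65.5% in H3R17C and 56.4% in H3R2C. The 1483 chosen in H3R26C were called at 65.5% in H3WT, 62.8% in H3R8C, 56.9% in H3R17C and 53.7% in H3R2C. In the 1316 chosen in H3R2C the rates of the other genotypes lay close together, at 61.1% in H3WT, 58.6% in H3R17C, 58.2% in H3R26C and 56.7% in H3R8C. In each of these sets and each genotype the nearer regions were called more, at 63.6% to 83.2%. These values were not tested.

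Members that overlap an exon of any gene were called at 71.5% in H3R2C, 83.8% in H3R8C, 84.3% in H3R17C and 82.1% in H3R26C, and members without an exon at 61.2%, 73.4%, 72.4% and 72.6%. These values were not tested.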
